A study of Mus musculus with 7 samples.

Results

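The genes described here are 37 mouse genes that make ribosomes in the nucleolus, listed by name for their known roles, out of 14851 gene identifiers in the table. All 37 were found by symbol, and all 37 passed the filter on low values (a mean of at least 10 normalised counts over the 7 livers), as did 12545 genes in all. RNA was sequenced from whole livers of male C57BL/6J mice about 70 days old, taken 8 h after a single intraperitoneal injection of CCl4, given at 1 mL/kg of a 20% stock in corn oil. CCl4 is a solvent that hepatocytes around the central vein turn into a reactive radical, which kills them. The 4 FL livers came from Albumin-Cre; p53 FL/FL mice, whose floxed Trp53 alleles are removed by a Cre recombinase that the Albumin promoter drives in hepatocytes. Liver cells that never made this Cre keep the gene. The 3 WT livers came from Albumin-Cre; p53 WT mice, which carry the same Cre and received the same injection, so no uninjured liver enters the comparison. Some mice of the colony also carried a Cre-dependent red fluorescent reporter at Rosa26, and which livers did was not given in the sources used here. WT source names share 1 prefix and FL source names have 2 different ones. What the prefixes stand for was not given in the sources used here, and any effect tied to them cannot be told apart from genotype.

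Ribosome production starts when RNA polymerase I transcribes the ribosomal RNA genes in the nucleolus. Small nucleolar RNPs (snoRNPs) modify the precursor, box C/D particles by methylation and box H/ACA particles by pseudouridylation, while assembly factors fold it, cut it and join it to ribosomal proteins to build the small and the large subunit. MYC is a well known activator of these genes, and p53 is tied to them because ribosomal proteins that are left unassembled bind and block MDM2, the ligase that degrades p53. In liver, the pathway is switched on when hepatocytes prepare to divide.

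Between 11.88 and 19.53 M reads per liver were estimated to lie behind the normalised counts, and these estimates cover the reads assigned to genes. Values of single livers are normalised counts, given in replicate order, FL 1 to 4 and WT 1 to 3. *Trp53* had 131, 130, 217 and 110 across the FL livers and 876, 688 and 831 across the WT livers. All FL livers lay below all WT livers, with a log2 fold change (FL minus WT) of -2.47 ± 0.23 (SE; limma, Benjamini-Hochberg adjusted p = 0.0447; exact permutation p = 0.029, two-sided, the smallest that 35 splits allow). The adjusted p was no longer under 0.05 in 11 of 20 alternative settings, and *Trp53* was lower in FL livers in all 20. WT replicate 2 and FL replicate 3 stood apart from the other livers. On the first principal component, which held 66.7% of the variance, they lay at 82 and 29.2, and the other 5 livers lay between -25.6 and -19.1. Of 8 hepatocyte markers, 7 were matched. Their summed level was 1555484, 1767619, 2086519 and 1956800 across the FL livers and 1349961, 1668762 and 1419711 across the WT livers. FL replicate 3 and WT replicate 2 were thus the highest of their genotype. The log2 fold changes of all 7 were above 0, against 51.6% of all genes, with a median of 0.31. At an adjusted p under 0.05 limma called 0 of these markers. Because WT replicate 2 and FL replicate 3 stood apart, the results below are given with and without them.

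None of the 37 genes passed the test between FL and WT livers, which asks whether loss of p53 in hepatocytes altered their level at this time. At an adjusted p under 0.05 limma called 0 of them, against 2 of all 12545 genes (0.0159%), and at an unadjusted p under 0.05 also 0, against 3.2% of all genes. The groups overlapped for all 37 genes, whereas they did not overlap for 4.76% of all genes. The log2 fold changes lay between -0.12 and 0.27 with a median of 0.07, and 29 of the 37 (78.4%) were above 0, against a median of 0.01 and 51.6% above 0 over all genes; with livers scaled to the total of all genes instead, 15 were above 0, their median was -0.04 and that of all genes -0.10. Their standard errors lay between 0.13 and 0.38. The 95% intervals of all 37 included 0, those of 35 stayed within a log2 change of 1 in either direction, and those of only 9 stayed within 0.5, so moderate changes were not detectable in these livers. Exact permutation p-values lay between 0.286 and 1 (two-sided, 35 splits).

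**Figure D1:**
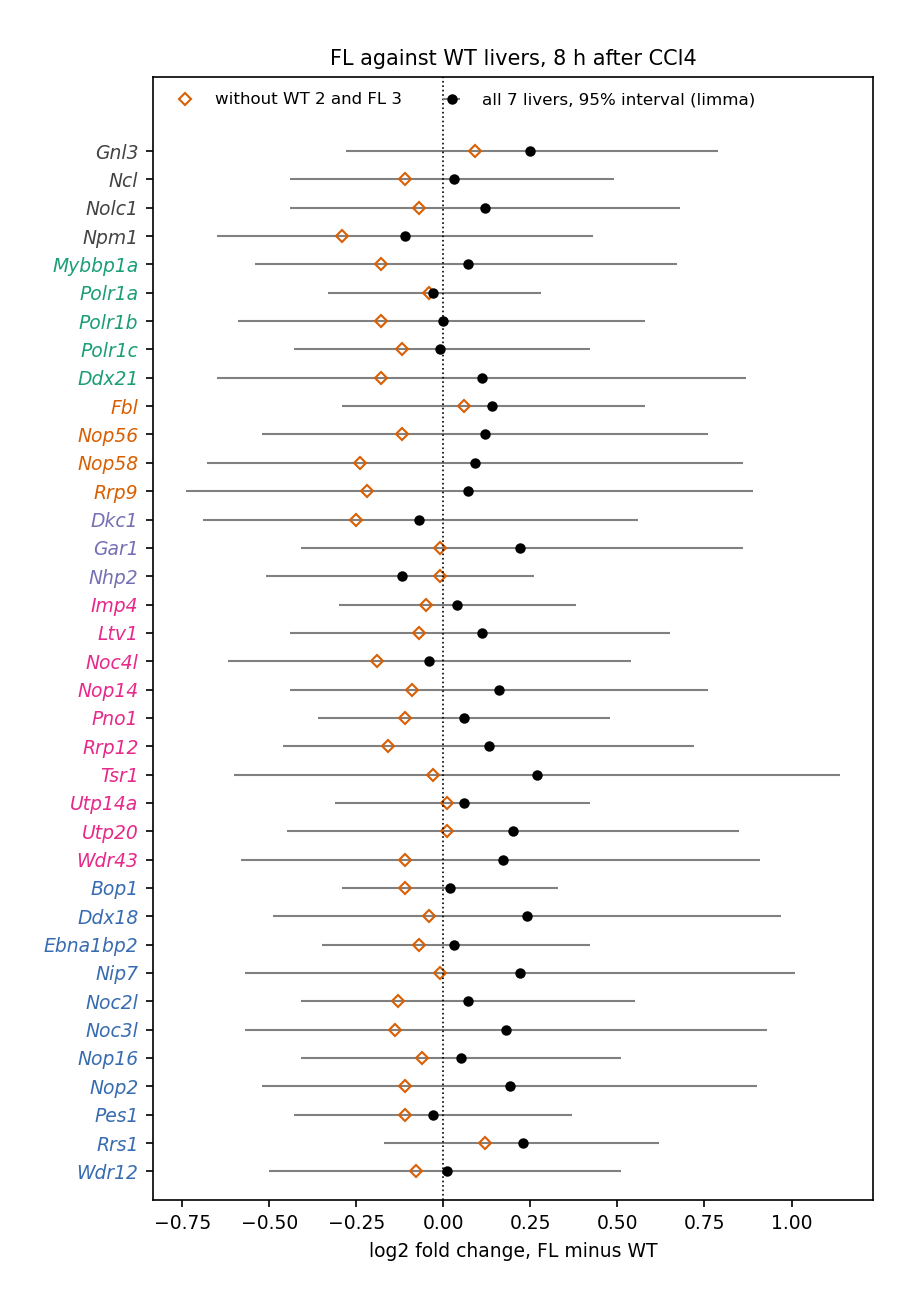
Log2 fold change (FL minus WT, horizontal axis) of each of the 37 genes, one per line and coloured by role; black points are the fit to all 7 livers with 95% limma intervals, and open diamonds the fit without WT replicate 2 and FL replicate 3. All 37 intervals cross 0, and 32 of the diamonds lie below 0.

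Among the abundant nucleolar proteins, *Ncl* (nucleolin, which binds precursor ribosomal RNA and nucleolar chromatin) had the highest count of the whole set, on a scale that is not per gene length. It had 5272, 5463, 4303 and 5952 across the FL livers and 5757, 3700 and 6253 across the WT livers. WT replicate 2 was the lowest liver and FL replicate 3 the lowest of the FL livers, and the other 5 lay close together. The log2 fold change was 0.03 ± 0.20 (SE; exact permutation p = 0.857). *Gnl3* (nucleostemin, a nucleolar GTPase) had 1778, 1889, 1336 and 1860 across the FL livers and 1766, 969 and 1695 across the WT livers. The same 2 livers were lowest, and the log2 fold change was 0.25 ± 0.23 (SE; exact permutation p = 0.457). *Npm1* (nucleophosmin, a nucleolar chaperone) and *Nolc1* (a chaperone of snoRNPs) gave log2 fold changes of -0.11 and 0.12, and neither passed the test.

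The RNA polymerase I group held 3 polymerase subunits, *Polr1a*, *Polr1b* and *Polr1c*, and *Mybbp1a*, a nucleolar protein that binds the MYB transcription factor and takes part in ribosomal RNA synthesis. *Mybbp1a* had the highest counts of them, with 4853, 4663, 3497 and 4407 across the FL livers and 5223, 2567 and 5253 across the WT livers. WT replicate 2 had less than any FL liver, while the other WT livers had more than any FL liver. Its log2 fold change was 0.07 ± 0.26 (SE; exact permutation p = 0.857). *Polr1a*, the largest subunit, varied least of the group, between 690 and 913 over the 4 FL livers and between 728 and 892 over the 3 WT livers, and its lowest value was in FL replicate 3 rather than WT replicate 2. The log2 fold changes of the 3 subunits lay between -0.03 and 0. *Ddx21*, an RNA helicase that acts in ribosomal RNA transcription and processing, had 3441, 3513, 2287 and 3281 across the FL livers and 3874, 1577 and 3841 across the WT livers. Its WT values were both the highest and the lowest of the 7 livers, and the log2 fold change was 0.11 ± 0.33 (SE; limma adjusted p = 0.999).

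*Nop58* and *Nop56* form the core of box C/D particles with *Fbl* (fibrillarin, the methyltransferase), and *Rrp9* belongs to the U3 particle that guides early cuts of the precursor. *Nop58* had 2178, 1975, 1493 and 2074 across the FL livers and 2533, 956 and 2385 across the WT livers. Both WT replicates 1 and 3 lay above every FL liver and WT replicate 2 below every one, giving a log2 fold change of 0.09 ± 0.33 (SE; exact permutation p = 0.886). *Fbl* had 141, 130, 118 and 170 across the FL livers and 142, 100 and 139 across the WT livers, and its log2 fold change was 0.14 ± 0.19 (SE; exact permutation p = 0.543). Other genes, *Gm5812* most, also hold 20.2% of its 36-base stretches, so its level depends on how shared reads were counted. *Nop56* and *Rrp9* gave log2 fold changes of 0.12 and 0.07.

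Of the box H/ACA proteins, *Dkc1* is the pseudouridine synthase and *Gar1* and *Nhp2* are core partners. *Gar1* had 462, 389, 337 and 516 across the FL livers and 453, 224 and 459 across the WT livers, and the log2 fold change was 0.22 ± 0.28 (SE; exact permutation p = 0.629). *Nhp2* stood out from the set, with 697, 814, 566 and 920 across the FL livers and 812, 782 and 815 across the WT livers. WT replicate 2 was close to the other WT livers, and the FL livers spread on both sides of the WT livers. The log2 fold change of *Nhp2* was -0.12 ± 0.17 (SE; exact permutation p = 0.657), and that of *Dkc1* was -0.07 ± 0.27 (SE; exact permutation p = 0.8).

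The 10 small-subunit factors held early components of the processome (*Wdr43*, *Utp14a*, *Utp20*, *Imp4*, *Noc4l*, *Nop14*) and factors of later maturation and export (*Pno1*, *Ltv1*, *Tsr1*, *Rrp12*). *Wdr43* had the highest counts, with 2026, 1692, 1241 and 1774 across the FL livers and 2003, 827 and 1944 across the WT livers. Its log2 fold change was 0.17 ± 0.32 (SE; exact permutation p = 0.743). *Tsr1*, a GTPase-like factor on the maturing small subunit, had 1557, 1399, 886 and 1463 across the FL livers and 1503, 546 and 1512 across the WT livers. The same 2 livers were lowest, with the other 5 close together, and the log2 fold change of 0.27 ± 0.38 (SE; exact permutation p = 0.629) was the largest of the 37 and also the least precise. Exons of *Srr* on the opposite strand cover 32.3% of the *Tsr1* exons, and whether strand was used in counting was not given in the sources used here. The log2 fold changes of the other 8 factors lay between -0.04 (*Noc4l*) and 0.20 (*Utp20*).

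The 11 large-subunit factors included the *Pes1*, *Bop1* and *Wdr12* complex and *Nop2*, a methyltransferase of large-subunit RNA. *Nop2* had 1911, 1782, 1332 and 1791 across the FL livers and 2005, 836 and 1933 across the WT livers, and the log2 fold change was 0.19 ± 0.31 (SE; exact permutation p = 0.771). *Rrs1*, needed to place the 5S particle in the large subunit, had 849, 798, 687 and 918 across the FL livers and 788, 535 and 779 across the WT livers. It had the smallest limma p of the whole set, with a log2 fold change of 0.23 ± 0.17 (SE; exact permutation p = 0.286, limma adjusted p = 0.999), and its groups overlapped. *Ddx18*, an RNA helicase, had 187, 190, 133 and 184 across the FL livers and 198, 82 and 188 across the WT livers, and its log2 fold change was 0.24 ± 0.31 (SE; exact permutation p = 0.686). It shares 62.9% of its 36-base stretches with other genes, mostly *Gm16433*, so its count is uncertain. The log2 fold changes of the other 8 factors lay between -0.03 (*Pes1*) and 0.22 (*Nip7*). Of the 37 genes, 6 shared more than 10% of such stretches with other genes. Besides *Ddx18* and *Fbl* these were *Pes1* (28.6%), *Npm1* (27.2%), *Nop56* (21.4%) and *Rrs1* (12.0%), and their counts carry the same limit.

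**Figure D2:**
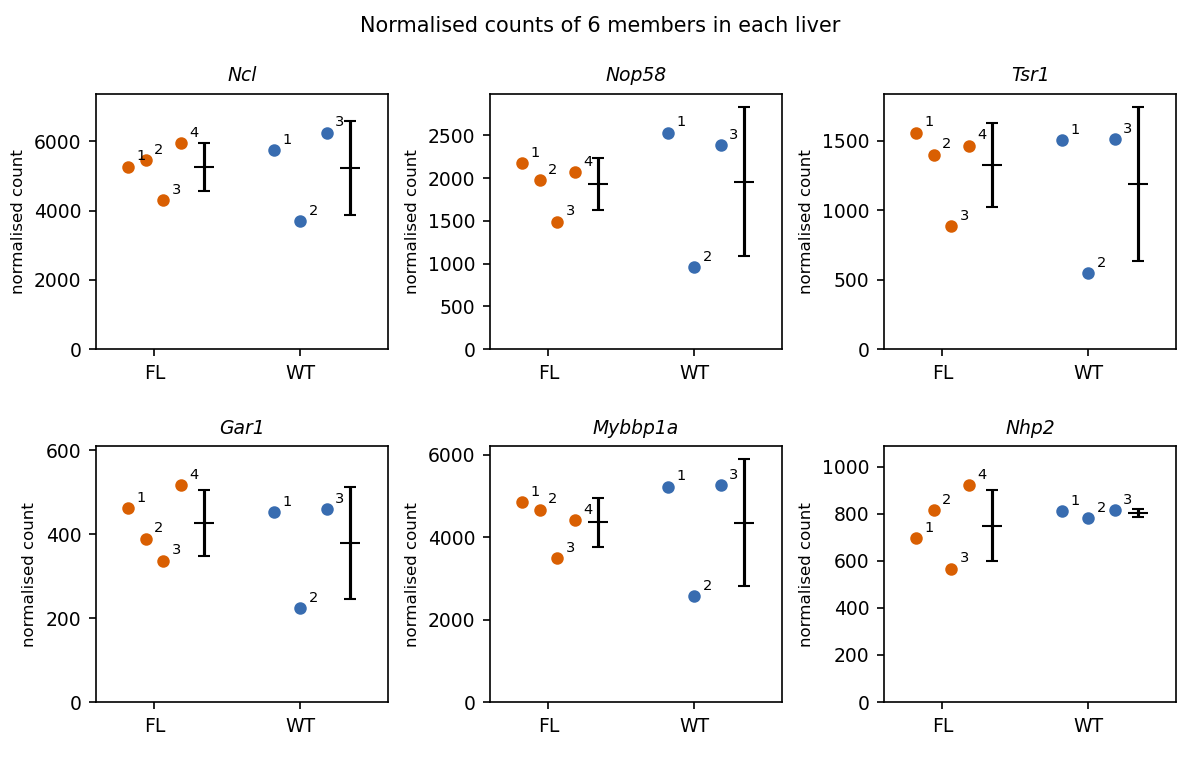
Normalised counts (vertical axes, from 0) of 6 genes in each FL and WT liver, numbered by replicate, with the mean and SD beside each group (n = 4 FL, n = 3 WT). WT replicate 2 is far below the other livers for *Nop58* and *Tsr1* but not for *Nhp2*, where it had 782 against 812 and 815.

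The main difference in these genes lay between livers of one genotype. WT replicate 2 was the lowest of the 7 livers for 35 of the 37 genes (94.6%), against 34% of all genes, and the exceptions were *Polr1a* and *Nhp2*. FL replicate 3 was the lowest FL liver for all 37, against 34.8% of all genes, and these were the 2 lowest livers of the 7 for 36 genes (97.3%), against 26% of all genes. WT replicate 2 lay below the mean of the other WT livers by a median log2 difference of -0.87, which is 54.7% of their level, and FL replicate 3 below the other FL livers by -0.42, or 74.5%. Over all genes the same medians were 0.02 and 0.01. In WT replicate 2 the genes ranged from 36.2% of the other WT livers for *Tsr1* to 96.1% for *Nhp2*, and 15 of the 37 were under 50%. In FL replicate 3 they ranged from 59.0% of the other FL livers for *Nip7* to 94.6% for *Bop1*.

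By role, the median in WT replicate 2 was 40.9% of the other WT livers for *Ddx21*, 43.1% for the box C/D proteins, 51.8% for the box H/ACA proteins and also 51.8% for the small-subunit factors. It was 56.7% for the nucleolar proteins, 59.1% for the polymerase I group and 64.5% for the large-subunit factors. In FL replicate 3 the same medians lay between 67.1% and 77.1% of the other FL livers. Across the 37 genes, the deviations of the 2 livers were correlated (Pearson r = 0.61, across genes, which are not independent replicates), less than across all genes (r = 0.77), and the points share each liver's library and scaling. Scaled to the total of all genes, WT replicate 2 was lowest for 27 of the 37 genes, against 21.9% of all genes. FL replicate 3 was then the lowest FL liver for 36, against 30.7% of all genes. These counts and deviations are descriptions, since WT replicate 2 and FL replicate 3 were singled out from results of these data.

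**Figure D3:**
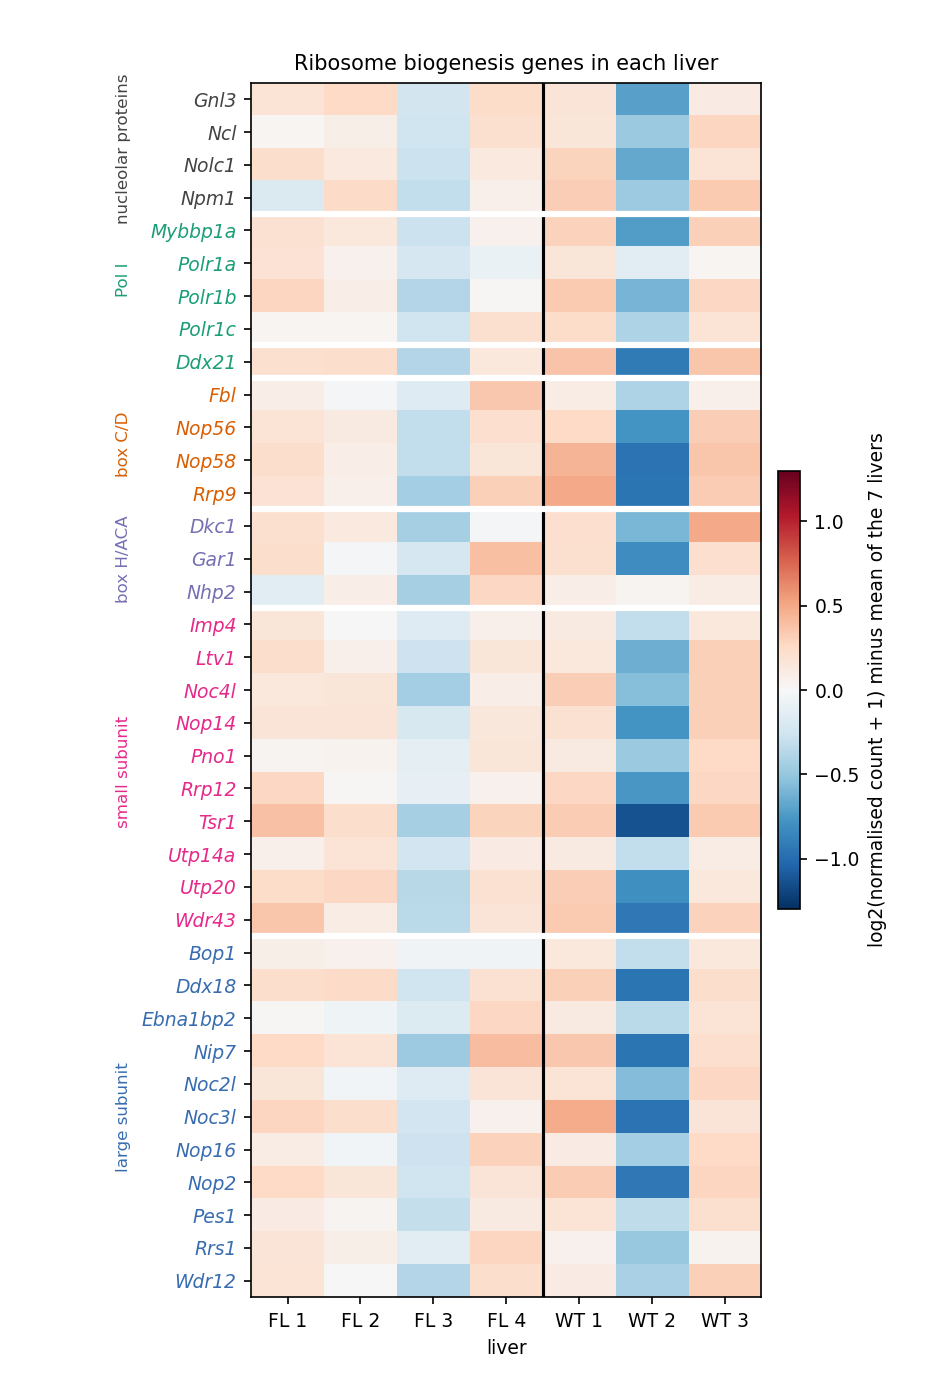
Level of each of the 37 genes in each liver, as log2(normalised count + 1) minus the mean of the 7 livers (colour; red above, blue below), with genes grouped by role. The column of WT replicate 2 is the bluest in 35 of 37 rows, and FL replicate 3 is the lowest FL liver in all 37.

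Marker genes of other cell types also set these livers apart, not all in one direction. The summed level of 8 macrophage markers was 10193 normalised counts in WT replicate 2 and 6475 in FL replicate 3, against 4055 to 5094 in the other livers, with 7 of 8 markers highest in WT replicate 2. For 8 stellate cell markers it was 7885 in WT replicate 2 and 3865 in FL replicate 3, against 2907 to 3269 in the others. For 8 lymphocyte markers it was 253 and 141, against 43 to 64. For 7 matched monocyte and neutrophil markers it was 365 and 228, against 64 to 135. For 8 endothelial markers the gap was small, with 4531 and 4238 against 3306 to 4076. For 6 cholangiocyte markers, FL replicate 3 was the lowest of all livers at 603, while WT replicate 2 at 1206 lay within the 884 to 1482 of the others. For 14 proliferation genes it was 2337 and 770, against 421 to 571. The part of these differences in the low levels of the ribosome biogenesis genes was not tested. In bulk liver, fewer cells of a type and less RNA per cell cannot be told apart.

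**Figure D4:**
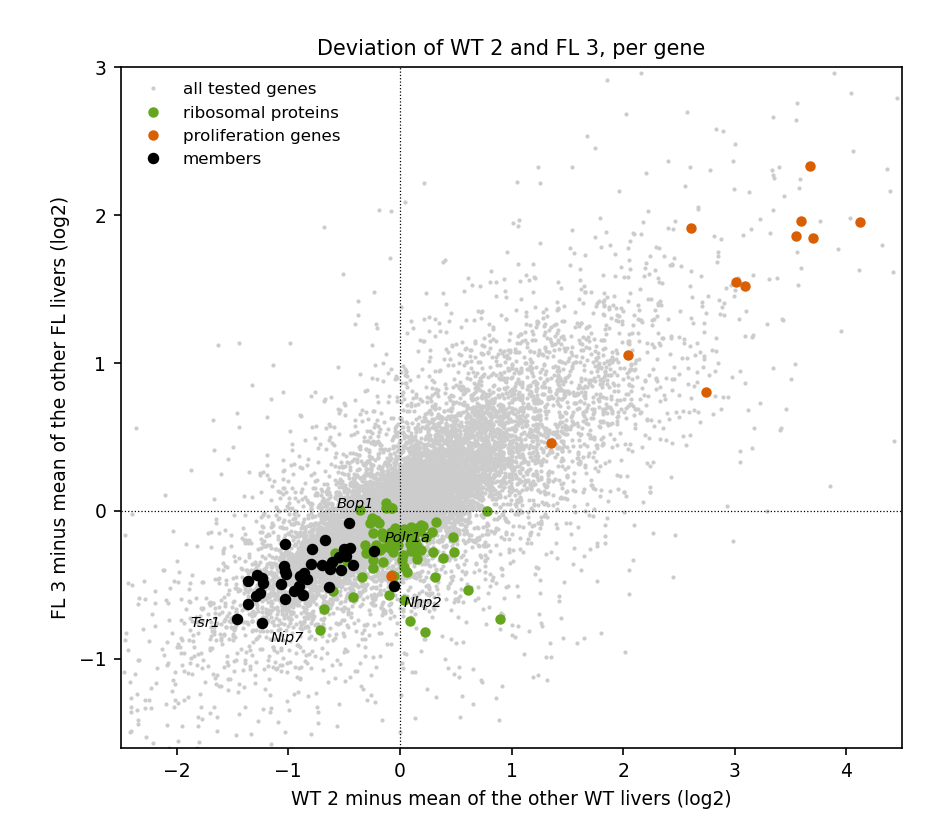
Deviation of each gene in WT replicate 2 from the mean of the other WT livers (horizontal axis, log2) against its deviation in FL replicate 3 from the other FL livers (vertical axis, log2), for all tested genes in grey, the 37 genes in black, ribosomal protein genes in green and proliferation genes in orange; 185 genes lie outside the axes. All 37 black points lie below 0 on both axes, with *Tsr1* far to the lower left and *Nhp2* near 0 on the horizontal axis.

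The 2 low livers carried most of the spread within groups. The median within-group SD of the 37 genes was 0.37 on the log2 scale over 7 livers, above the 0.26 of all genes, and 0.09 over the other 5 livers, below the 0.14 of all genes. It was smaller with 5 livers for all 37 genes. Some fall was fixed in advance, since the 2 livers left out were singled out from these data and were the 2 lowest for 36 genes. For *Noc4l* the SD went from 0.39 to 0.03, for *Ddx18* from 0.49 to 0.04 and for *Ddx21* from 0.52 to 0.04, whereas for *Polr1a* it went only from 0.16 to 0.12.

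The direction of the small differences depended on which livers were kept. Without WT replicate 2, 36 of the 37 log2 fold changes (97.3%) were below 0, against 52.2% of all genes, with a median of -0.19. The FL livers then lay wholly below the WT livers for 13 genes (35.1%), against 10.8% of all genes. *Npm1* and *Nop58* had an unadjusted p under 0.05 (limma, 5.41% of the set against 5.97% of all genes). *Npm1* shares 27.2% of its 36-base stretches with other genes, mostly *Gm9118*, so its count is uncertain. None had an adjusted p under 0.05, the smallest being 0.787. In that fit FL replicate 3, low for all 37 genes, was kept among the FL livers.

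Without both low livers, 32 of 37 log2 fold changes (86.5%) were below 0, against 53% of all genes, between -0.29 (*Npm1*) and 0.12 (*Rrs1*) with a median of -0.11. The 3 FL livers lay below both WT livers for 13 genes (35.1%), against 14.6% of all genes, and above both for *Gnl3* and *Rrs1*, or 5.41% against 12.8%. *Nop58* had a log2 fold change of -0.24 ± 0.08 (SE; limma adjusted p = 0.382) and *Ddx21* one of -0.18 ± 0.08 (SE; limma adjusted p = 0.505). These were the only 2 of the 37 at an unadjusted p under 0.05 (5.41%, against 9.74% of all genes), and limma called none at an adjusted p under 0.05 (0.0487% of all genes), the smallest adjusted p being 0.382. This fit rests on 5 livers, kept because earlier results of these data had shown the other 2 to stand apart.

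Promoters of the genes were searched for the letters CACGTG, the E-box that MYC and other factors of its class can bind, which read the same on both strands. RefSeq windows (GRCm38.p6) from 250 bases before to 50 after the start were matched for 32 of the 37 genes, 35 windows in all. The letters were in 9 windows (25.7%), against 7.15% of all windows and 9.86% of those of tested genes. Of these 9 matches 7 (77.8%) lay after the start, against 13.9% of all matches. The 6 windows of the genes with the highest mean level are shown as 30 bases each, 5′ to 3′ on the gene's strand with the match in capitals, to show that the flanks differ while the core is the same. A match is a description of the letters and not evidence of binding.
*Mybbp1a* (chr11:72441347-72441376, + strand): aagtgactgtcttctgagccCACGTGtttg
*Nop2* (chr6:125131811-125131840, + strand): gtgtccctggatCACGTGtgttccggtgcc
*Wdr43* (chr17:71616220-71616249, + strand): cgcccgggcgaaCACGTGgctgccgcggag
*Tsr1* (chr11:74898092-74898121, + strand): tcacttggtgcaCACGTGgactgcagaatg
*Imp4* (chr1:34439696-34439725, + strand): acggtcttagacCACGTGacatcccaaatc
*Utp20* (chr10:88826765-88826794, - strand): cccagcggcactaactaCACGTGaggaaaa
The matches of *Mybbp1a*, *Wdr43*, *Tsr1* and *Utp20* lay after the start and those of *Nop2* and *Imp4* before it. In WT replicate 2 these genes were at 49.0% (*Mybbp1a*), 42.5% (*Nop2*), 41.9% (*Wdr43*), 36.2% (*Tsr1*), 73.4% (*Imp4*) and 48.9% (*Utp20*) of the other WT livers. The remaining genes with a match were at 62.7% (*Pno1*), 69.4% (*Pes1*) and 55.1% (*Ltv1*). Whether genes with a match differed from those without one was not tested.

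Other genes of the pathway were not called between genotypes either. Among 52 further small-subunit factors limma called 0, and *Ngdn* alone had an unadjusted p under 0.05, where 3.2% of all genes did. *Ngdn* averaged 892 ± 74.7 (SD, n = 4 FL) against 697 ± 125 (SD, n = 3 WT) normalised counts, with a log2 fold change of 0.37 ± 0.15 (SE; exact permutation p = 0.057, limma adjusted p = 0.999). Among 51 further large-subunit factors, 13 further polymerase I genes, 16 exosome genes and 11 snoRNP assembly genes none had an unadjusted p under 0.05. The medians of these 5 lists lay between 0.07 and 0.12. For 7 tested host genes of small nucleolar RNAs the median was higher, at 0.22. All 7 were above 0, against 51.6% of all genes, and none had an unadjusted p under 0.05. *Myc* itself averaged 2250 ± 393 (SD, n = 4 FL) against 2280 ± 533 (SD, n = 3 WT), a log2 fold change of 0 ± 0.20 (SE; exact permutation p = 1). *Mdm2*, a target of p53 and its ligase, averaged 1060 ± 132 (SD, n = 4 FL) against 1260 ± 199 (SD, n = 3 WT), with a log2 fold change of -0.25 ± 0.15 (SE; exact permutation p = 0.2).

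Between livers, the further assembly factors were low where the 37 genes were low. WT replicate 2 was the lowest of the 7 livers for 46 of 52 small-subunit (88.5%) and 46 of 51 large-subunit factors (90.2%), against 34% of all genes. Their median deviations from the other WT livers were -0.65 and -0.78 (log2). Of the 79 tested ribosomal protein genes, WT replicate 2 was the lowest liver for 18 (22.8%), below the share of all genes. Their median deviation was -0.05, and in FL replicate 3 it was -0.23. Ribosomal protein genes have many processed copies in the genome, so their counts depend on how shared reads were treated. *Rpl5* and *Rpl11*, whose proteins bind MDM2, gave log2 fold changes of 0.10 and 0.33, and neither passed the test. *Myc* in WT replicate 2 was at 64.7% of the other WT livers.

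**Figure D5:**
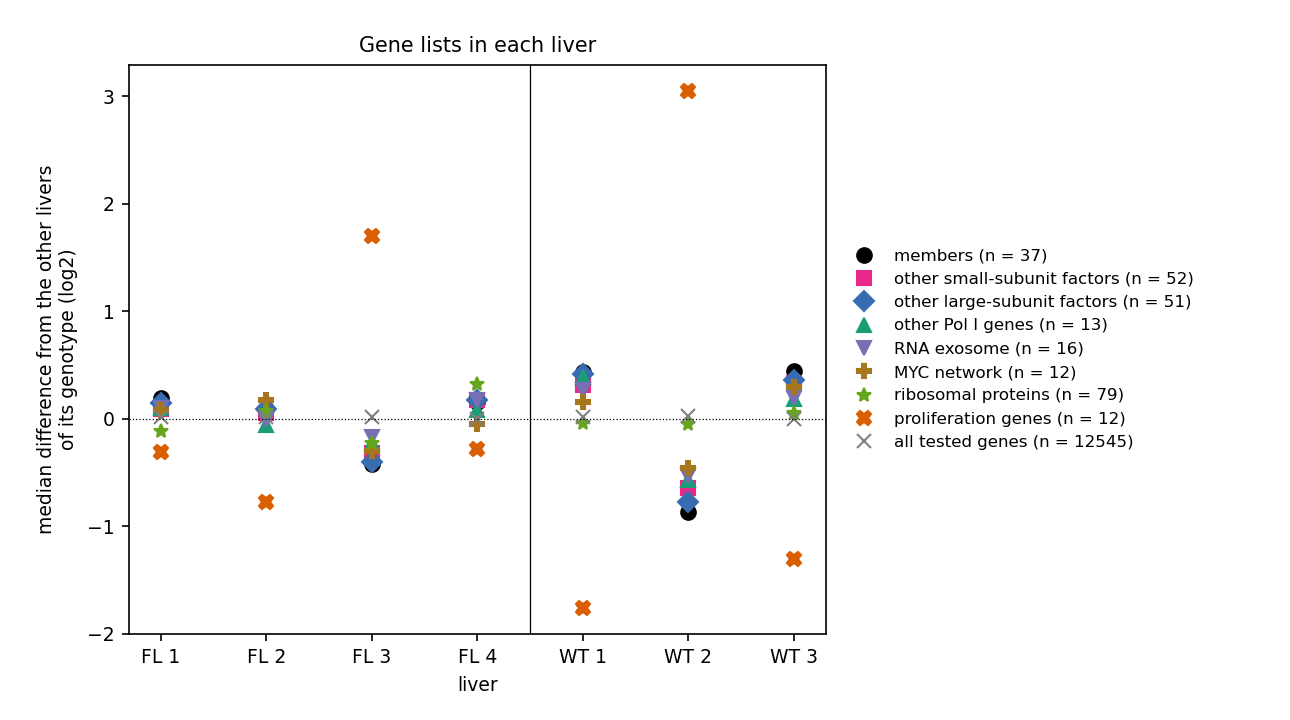
Median deviation of each gene list in each liver from the mean of the other livers of its genotype (vertical axis, log2), with one symbol per list and livers along the horizontal axis. In WT replicate 2 the 37 genes are at -0.87, ribosomal protein genes at -0.05 and proliferation genes at 3.05.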

How the data were processed

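The deposited table held whole-number normalised counts (treated as a score, since the authors had divided read counts by DESeq2 size factors and rounded them) for 4 FL and 3 WT livers, with 0 sample columns unused. Per the submitters' notes and the study's methods, reads were demultiplexed with bcl2fastq 2.15.0.4 and aligned with TopHat2 2.0.13. The notes name both featureCounts and HTSeq as counters, and the build is written GRCh38 release 75 for mouse reads, so the build is uncertain and gene positions here come from GENCODE M21 (GRCm38.p6). Values were log2(count + 1), filtered at a mean of at least 10 and fitted with limma 3.58.1 (R 4.3.3, trend, Benjamini-Hochberg over all genes tested). Fold changes of low genes are understated on that scale. Exact permutation tests were two-sided.

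Reads per liver were estimated from the spacing of the low values. In simulated libraries the method recovered 32 of 33 spacings within 0.002. These included 7 simulated at the spacings that the method itself had fitted here, which does not check those fits independently. It missed a spacing of 0.95 by 0.0396. In a separate trial it also missed several other spacings, so the read numbers are rough. The cause of the misses was not tested. The limma fit was also tested on simulated data, and the outcome is not reported here. Livers of one genotype differed by far more than sampling noise (chi-square per degree of freedom 10.0 to 133.7), so all 7 were kept as separate samples. Per the study's methods, each sample was 1 mouse.

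The 37 genes and all lists were chosen with earlier results of these data known. Values in every liver are given, in each role, for the gene with the highest mean and that with the smallest p, for genes whose groups did not overlap and for the 5 largest log2 fold changes; other genes fixed for naming were *Trp53* (every liver), *Myc*, *Mdm2*, *Rpl5*, *Rpl11* and the smallest p in each list (means or log2 fold changes), of which 1 is not reported here. Other genes named, the promoter windows printed and the scaling of the lowest-liver counts were chosen after values were seen. Alternatives covered pseudocounts, filters, scaling, trend, weights, the replicate block and leaving out livers.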

Additional observations from a re-analysis of the deposited data

Results flagged for a closer look

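In FL replicate 3, 5 genes and the mean level of the 37 genes lay far from the other 3 FL livers, with a gap to the nearest of them, as a share of the group's range, above Dixon's 95% limit for 4 samples. *Utp20* had 642 normalised counts there, against 946 to 996 in the other FL livers. *Noc4l* had 479, against 691 to 726, and *Nop14* had 825, against 1062 to 1072. *Ddx18* had 133, against 184 to 190, and *Ddx21* had 2287, against 3281 to 3513. The mean log2 level of the 37 genes, relative to the mean of the 7 livers, was -0.28 in FL replicate 3 and 0.10 to 0.17 in the other FL livers. Chance flags about 1 in 20 groups, or about 1.9 of the 38 values examined, and 6 were found, all in the same liver and so not independent of each other. The 3 WT livers were too few for this test.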

How the results depend on the processing

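In every one of the 20 alternatives limma called 0 of the 37 genes at an adjusted p under 0.05, and the number at an unadjusted p under 0.05 was 0 except for 2 without WT replicate 2 and 2 without WT replicate 2 and FL replicate 3. Over all genes, the calls went from 2 to 0 with a pseudocount of 5 (404 genes at an unadjusted p under 0.05), a mean of at least 50 (316), at least 10 in every liver (356) or no mean-variance trend (465), to 1 after quantile normalisation, to 5 with array weights and to 6 without the 2 low livers, and lay between 0 and 5 with each liver left out in turn (248 to 739 unadjusted). *Trp53*, close to the threshold, had a log2 fold change of -2.44 with a pseudocount of 5 (adjusted p = 0.0501), of -2.475 with a mean of at least 50, at least 10 in every liver or no trend (adjusted p = 0.0666, 0.0643 and 0.103), and between -2.68 and -2.35 with each liver left out. Deviations from the group mean, across all tested genes, were compared between FL and WT livers of the same replicate number. Their correlations were 0.44, -0.48 and -0.66 for replicates 1, 2 and 3. Since WT replicate 2 and FL replicate 3 stood apart under different numbers, these correlations cannot show whether the numbers paired the livers. With a block on the number limma called 0 of all genes (110 unadjusted), and *Trp53* was at -2.35 (adjusted p = 1). Log2 fold changes with a changed sign were then -0.035 (*Ncl*), -0.018 (*Rrp9*), -0.068 (*Wdr12*), -0.055 (*Ebna1bp2*) and -0.042 (*Nop16*).

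The median of the 37 genes was -0.037 when scaled to the total of all genes, -0.13 with array weights, -0.11 without the 2 low livers and between -0.19 and 0.24 with each liver left out. Its sign therefore depended on the scaling, the livers and their weights. The groups did not overlap for 15 genes without the 2 low livers, where FL was lower in 14.6% and higher in 12.8% of all genes without overlap, and for 0 to 13 with each liver left out, the most without WT replicate 2. No single gene's change of sign reached an adjusted p under 0.05. Log2 fold changes with a changed sign were, after quantile normalisation, -0.044 (*Ncl*), -0.016 (*Bop1*) and -0.008 (*Ebna1bp2*); with the trimmed mean of M-values, 0.010 (*Polr1b*) and 0.008 (*Polr1c*). Scaled to the total of all genes they were -0.082 (*Ncl*), -0.046 (*Mybbp1a*), -0.021 (*Nop58*), -0.037 (*Rrp9*), -0.054 (*Utp14a*), -0.073 (*Imp4*), -0.047 (*Pno1*), -0.003 (*Ltv1*), -0.088 (*Bop1*), -0.10 (*Wdr12*), -0.044 (*Noc2l*), -0.080 (*Ebna1bp2*), -0.060 (*Nop16*) and -0.003 (*Ddx21*). Without WT replicate 2 and FL replicate 3 they were -0.11 (*Ncl*), -0.072 (*Nolc1*), -0.18 (*Mybbp1a*), -0.12 (*Nop56*), -0.24 (*Nop58*), -0.22 (*Rrp9*), -0.011 (*Gar1*), -0.11 (*Wdr43*), -0.093 (*Nop14*), -0.048 (*Imp4*), -0.11 (*Pno1*), -0.073 (*Ltv1*), -0.035 (*Tsr1*), -0.16 (*Rrp12*), -0.11 (*Bop1*), -0.076 (*Wdr12*), -0.11 (*Nop2*), -0.13 (*Noc2l*), -0.14 (*Noc3l*), -0.005 (*Nip7*), -0.073 (*Ebna1bp2*), -0.059 (*Nop16*), -0.045 (*Ddx18*) and -0.18 (*Ddx21*). With array weights they were -0.15 (*Ncl*), -0.069 (*Nolc1*), -0.18 (*Mybbp1a*), -0.15 (*Nop56*), -0.24 (*Nop58*), -0.24 (*Rrp9*), -0.067 (*Gar1*), -0.13 (*Wdr43*), -0.11 (*Nop14*), -0.066 (*Imp4*), -0.14 (*Pno1*), -0.12 (*Ltv1*), -0.066 (*Tsr1*), -0.15 (*Rrp12*), -0.094 (*Bop1*), -0.16 (*Wdr12*), -0.11 (*Nop2*), -0.17 (*Noc2l*), -0.077 (*Noc3l*), -0.039 (*Nip7*), -0.13 (*Ebna1bp2*), -0.14 (*Nop16*), -0.038 (*Ddx18*) and -0.18 (*Ddx21*). When livers were omitted singly, the ranges of the genes whose sign changed at least once were *Ncl* -0.20 to 0.17, *Npm1* -0.38 to 0.027, *Gnl3* -0.026 to 0.41, *Nolc1* -0.18 to 0.29, *Polr1a* -0.10 to 0.043, *Polr1b* -0.31 to 0.17, *Polr1c* -0.21 to 0.11, *Mybbp1a* -0.28 to 0.24, *Fbl* -0.021 to 0.23, *Nop56* -0.24 to 0.31, *Nop58* -0.36 to 0.34, *Rrp9* -0.38 to 0.34, *Dkc1* -0.38 to 0.16, *Gar1* -0.12 to 0.40, *Nhp2* -0.23 to 0.004, *Wdr43* -0.25 to 0.39, *Utp14a* -0.084 to 0.15, *Utp20* -0.14 to 0.42, *Noc4l* -0.33 to 0.11, *Nop14* -0.19 to 0.36, *Imp4* -0.11 to 0.12, *Pno1* -0.16 to 0.21, *Ltv1* -0.18 to 0.29, *Tsr1* -0.22 to 0.52, *Rrp12* -0.21 to 0.30, *Bop1* -0.13 to 0.10, *Pes1* -0.21 to 0.067, *Wdr12* -0.20 to 0.16, *Nop2* -0.22 to 0.41, *Noc2l* -0.19 to 0.22, *Noc3l* -0.25 to 0.47, *Nip7* -0.19 to 0.46, *Ebna1bp2* -0.14 to 0.13, *Nop16* -0.16 to 0.19, *Ddx18* -0.17 to 0.46 and *Ddx21* -0.32 to 0.33. The cause of these changes was not tested. With 4 against 3 livers, the lowest p of an exact permutation test is 0.029, and intervals of the 37 genes reached -0.74 and 1.14.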

Other observations

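From the further lists, genes with the smallest limma p of their list (*Trp53* aside) are given, and none of those given had an adjusted p under 0.05. *Snhg3*, a host of small nucleolar RNAs, averaged 76.2 ± 18.3 (SD, n = 4 FL) against 53.3 ± 2.31 (SD, n = 3 WT) normalised counts, a log2 fold change of 0.48 ± 0.21 (SE; exact permutation p = 0.057). *Nop53*, an assembly factor that also binds p53, was at 0.27 ± 0.16, and *Nop10*, a box H/ACA protein, at -0.18 ± 0.11. In WT replicate 2, *Nop10* was at 110% of the other WT livers, with *Nhp2* at 96.1%, *Dkc1* at 51.5% and *Gar1* at 49.1%.

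*Mxd1*, which pairs with MAX in place of MYC, was at 163% of the other WT livers in WT replicate 2, and its log2 fold change between genotypes was -0.48 ± 0.29 (SE; exact permutation p = 0.286). *Taf1b*, a polymerase I initiation factor, was at -0.28 ± 0.16 and *Eri1*, an exonuclease, at -0.16 ± 0.15. *Ccnb2*, a mitotic cyclin, averaged 87.7 ± 121 (SD, n = 3 WT) against 17 ± 15 (SD, n = 4 FL) normalised counts, and WT replicate 2 was at 1260% of the other WT livers. The difference between these genes and the 37 genes was not tested.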
